A study of Musculus with 2 samples.

Results

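IL-33, its receptor subunits and the type 2 cytokines that act with them are described here in the stromal vascular fraction of mouse subcutaneous white adipose tissue (sWAT), over 9 genes of 32245 gene symbols counted. The genes were listed by name from earlier results of these data: the alarmin Il33, the receptor genes Il1rl1 and Il1rap, the cytokine and growth factor genes Il5, Il13, Il4, Areg and Csf2, and the transcription factor gene Gata3. The stromal vascular fraction is what remains of digested fat once mature fat cells are removed, namely fibroblast-like precursors with the immune and vessel cells around them. Single cells were sequenced by 10x Genomics in 1 LPCAT3-AKO library (genotype LPCAT3 knockout) and 1 control library (genotype WT). LPCAT3 is an enzyme that places polyunsaturated fatty acids into phosphatidylcholine, and the title of the series links its loss in fat to insulin sensitivity. The sample labels give mice of 5 weeks, while the text of the series gives an older age, so the age is unsettled. The sources used here do not name the Cre driver, the deleted exons or how many mice each library pools. The series text puts both genotypes on a diet abbreviated CD.

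IL-33 is a cytokine of the IL-1 family that is stored in the nucleus of stromal, epithelial and endothelial cells and acts when it is released. It binds ST2, the product of Il1rl1, which then pairs with the accessory chain encoded by Il1rap and signals through MyD88 to NF-kB. Cells that carry ST2 include group 2 innate lymphoid cells, mast cells and regulatory T cells, and in adipose tissue the stromal fibroblasts are a known source of IL-33. Group 2 innate lymphoid cells depend on GATA3 and answer IL-33 with IL-5, IL-13, amphiregulin (Areg) and GM-CSF (Csf2), while IL-4 is typical of T helper 2 cells, mast cells and basophils.

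The LPCAT3-AKO library held 119355147 UMIs (unique molecular identifiers, each a counted RNA molecule) in 12806 barcodes, and the control library 111669076 UMIs in 13831 barcodes. After filtering and removal of likely doublets, 10576 LPCAT3-AKO and 11191 control cells remained, with medians of 8595 and 8078 UMIs, and 58 barcode sequences occurred in both libraries. Cells were assigned by marker genes, none of them a member. The gates found 5664 LPCAT3-AKO and 5511 control fibroblast-like cells, 2717 and 3718 macrophage-like, 209 and 202 vascular endothelial-like, 153 and 105 T cell-like, 61 and 68 mast cell-like, and 23 and 12 innate lymphoid-like cells. Another 248 LPCAT3-AKO and 107 control cells were epithelial-like, and 1117 and 1129 cells met no gate. The fibroblast-like cells showed a median of 87.5% of their markers and the innate lymphoid-like cells a median of 50%. The dendritic cell gate was loose, with 203 of its 290 cells at the minimum of 3 markers and 271 cells 1 marker short of it. Lpcat3 itself stood at 29.5 CPM (28.1 to 31.02) in LPCAT3-AKO and 27.0 CPM (25.6 to 28.4) in control fibroblast-like cells. Its tag can lie outside the deleted part, and with the Cre driver unnamed it is not known which of these cells lost the gene. Loss of Lpcat3 in the cells sequenced here was therefore not checked.

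Each group is 1 library, without replicates, and no test was possible. Thus each difference describes these 2 libraries, and all intervals are 95% intervals that cover counting error only. Levels are UMIs of a gene per 1000000 UMIs of the class (CPM), and log2 ratios are of CPM + 1 in the LPCAT3-AKO over the control library. A gene is called higher or lower past a size rule, which needs a level of at least 20 CPM in one library, a ratio of at least 1.5 and a counting interval without 1. The members were chosen with these values known, so what follows describes them and gives no independent evidence of a difference.

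Most of the 9 genes had 1 main source. Fibroblast-like cells held 94.9% of the Il33 UMIs in the LPCAT3-AKO and 98.3% in the control library. Epithelial-like cells held 82.9% and 57.2% of those of Areg, and 90.4% and 83.5% of those of Gata3. The source of Il1rl1 was the one that differed most between the libraries: fibroblast-like cells held 21.1% of its 2050 UMIs in the LPCAT3-AKO library and 63.7% of its 4327 UMIs in the control. Il5, Il13 and Il4 were rare, with 58, 28 and 69 UMIs in all LPCAT3-AKO cells against 82, 24 and 42 UMIs in all control cells.

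**Figure D1:**
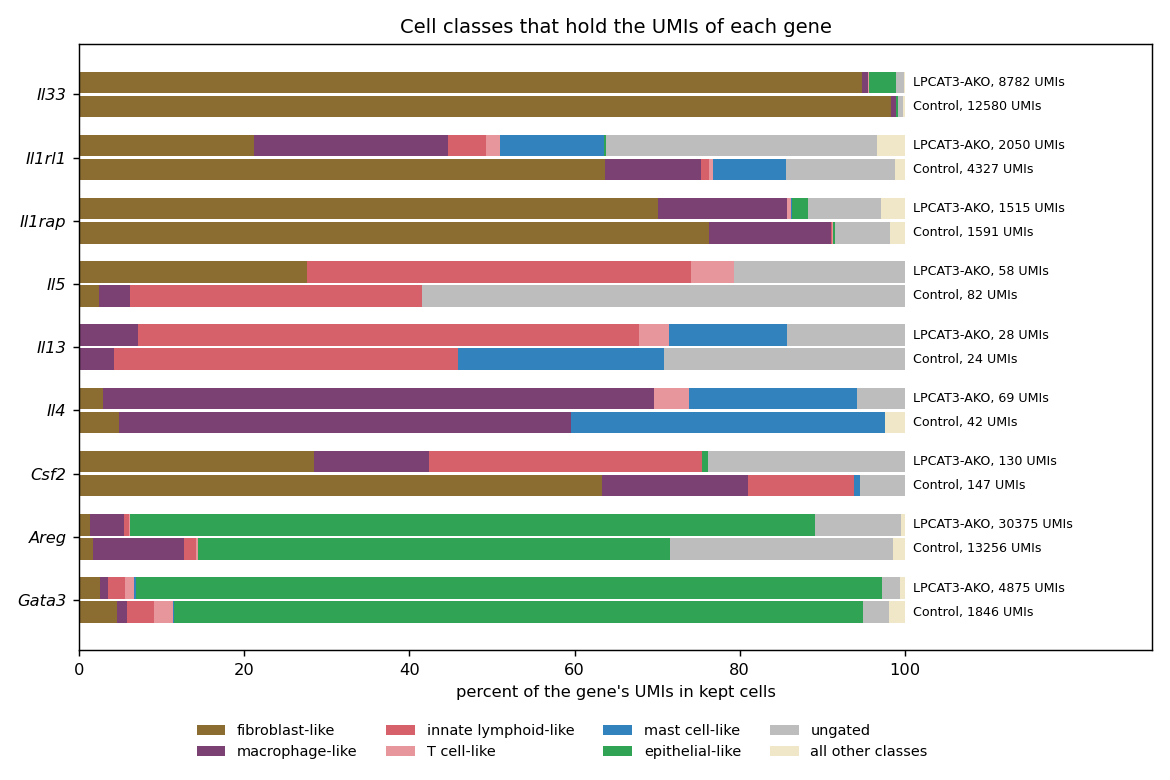
Percent of the UMIs of each of the 9 genes (horizontal axis) held by each cell class, with the LPCAT3-AKO library as the upper bar of each pair and the total UMIs at the right. Fibroblast-like cells hold 94.9% and 98.3% of Il33, but 21.1% and 63.7% of Il1rl1, and epithelial-like cells hold most of Areg and Gata3.

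Il33 was a gene of the fibroblast-like cells, and its level there was lower in the LPCAT3-AKO library. It stood at 155 CPM (151 to 158) in LPCAT3-AKO and 238 CPM (234 to 242) in control fibroblast-like cells, a log2 ratio of -0.62 and a ratio of 0.650 (0.632 to 0.668). Of these cells 44.8% in the LPCAT3-AKO and 58.3% in the control library had an Il33 UMI, at median depths of 9205 and 9458 UMIs. In macrophage-like cells, taken as the background that free RNA gives, the shares were 2.36% and 2.15% at median depths of 7857 and 6152 UMIs. After each cell was thinned to 2000 UMIs, which left out 123 LPCAT3-AKO and 147 control fibroblast-like cells, the shares were 21.3% (20.2 to 22.4) and 30.1% (28.9 to 31.3). The difference did not rest on a few cells: 597 LPCAT3-AKO and 973 control cells had 5 or more Il33 UMIs, and the highest single cell held 0.228% and 0.243% of the UMIs.

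Of the 9 members, 3 reached 20 CPM in fibroblast-like cells (Il33, Il1rl1 and Il1rap), and 2 of them, Il33 and Il1rl1, were lower past the size rule and 0 higher. Over all 6051 genes tested in these cells, 0.76% were lower and 1.44% higher. Their median log2 ratio was -0.00, against -0.62 for the 3 members. The call of Il33 was lost in 2 alternatives: the ratio was 0.673 (0.633 to 0.716) with cells thinned to 2000 UMIs and 0.749 with the fibroblast-like states described next weighted alike, both short of the 1.5-fold needed.

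Within the fibroblast-like cells Il33 followed the Dpp4-high state, the Dpp4 and Pi16 positive progenitors of the tissue interstitium. Dpp4-high cells had 229 CPM (224 to 235) in the LPCAT3-AKO and 304 CPM (298 to 310) in the control library, and held 85.4% and 86.3% of all Il33 UMIs. This difference, with a log2 ratio of -0.40, did not reach the size rule. Icam1-high cells, the precursors committed to the fat cell lineage, were near the background, with 2.33 CPM in LPCAT3-AKO and 2.87 CPM in control cells. The states between these extremes had middle levels. Cells high in F3, the marker of a stromal population that restrains fat cell formation, had 72.8 CPM (54.5 to 95.2) in the LPCAT3-AKO and 92.1 CPM (65.1 to 126) in the control library. Ccn5-high cells had 95.8 CPM (84.3 to 108) and 98.1 CPM (84.9 to 113). For both of these states the interval of the ratio included 1.

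Interferon-high fibroblast-like cells, which carry Ifit1, Isg15 and other interferon-induced transcripts, had 156 CPM (136 to 178) of Il33 in the LPCAT3-AKO and 270 CPM (254 to 288) in the control library. This was lower past the size rule, at a log2 ratio of -0.79, in a state where 10.5% of 6124 tested genes were lower and 6.78% higher. Cells of no state had 57.8 CPM in LPCAT3-AKO and 80.2 CPM in control cells. The makeup of the class differed as well: Dpp4-high cells were 60.8% of LPCAT3-AKO and 69.1% of control fibroblast-like cells, Icam1-high cells 22.1% and 13.7%, and interferon-high cells 2.24% and 5.81%. With the states weighted alike in both libraries the log2 ratio of Il33 was -0.41, against -0.62 unweighted.

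**Figure D2:**
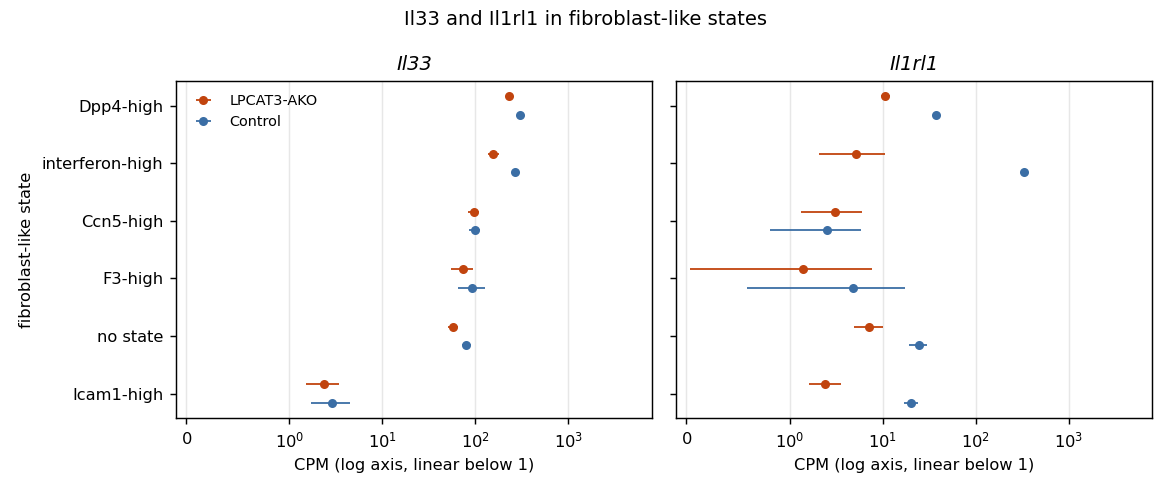
Level of Il33 (left) and Il1rl1 (right) in 6 fibroblast-like states, in CPM on a log axis that is linear below 1, with the LPCAT3-AKO library above the control in each row and bars for 95% counting intervals. Il33 is highest in Dpp4-high cells of both libraries, at 229 and 304 CPM, and near 0 in Icam1-high cells, while Il1rl1 is set apart by the interferon-high cells, at 5.11 CPM in LPCAT3-AKO and 328 CPM in control cells.

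The level of Il33 was higher at each further Dpp4-high marker that a fibroblast-like cell showed, in both libraries. In the LPCAT3-AKO library it was 12.2 CPM in cells that showed 0 of the 8 markers, 123 CPM at 4 markers and 328 CPM at 8 markers. In the control library these levels were 10.3, 207 and 439 CPM. The cells with 0 markers were thus alike in both libraries, with overlapping counting intervals, and the LPCAT3-AKO cells were lower at each number from 1 to 8. The numbers of cells behind the ends of the range were 1118 and 291 in the LPCAT3-AKO and 773 and 261 in the control library. Il1rl1 had no such order: control cells had 64.5 CPM at 1 marker, 11.5 CPM at 2 markers and 81.9 CPM at 4 markers, and LPCAT3-AKO cells lay between 1.82 and 24.0 CPM.

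**Figure D3:**
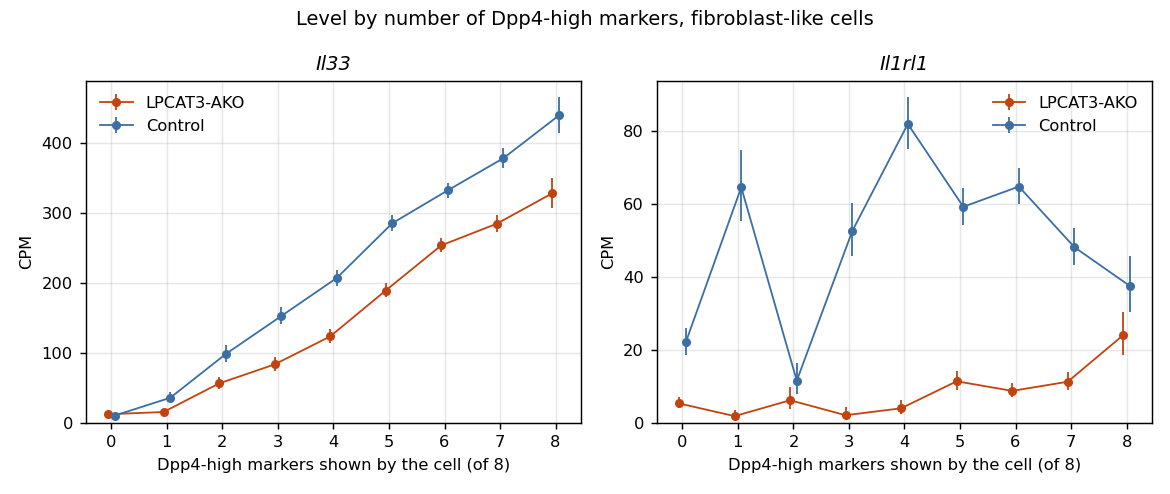
CPM of Il33 (left) and Il1rl1 (right) in fibroblast-like cells grouped by how many of the 8 Dpp4-high markers each cell showed, with bars for 95% counting intervals. Il33 climbs to 328 CPM in the LPCAT3-AKO and 439 CPM in the control library at 8 markers, and Il1rl1 follows no such line.

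Outside the fibroblast-like cells, Il33 was low. Epithelial-like cells had 36.5 CPM (32.4 to 40.9) among LPCAT3-AKO cells, with UMIs in 59 of 248 cells, and 11.2 CPM (7.41 to 16.4) in the control, with UMIs in 6 of 107 cells. The control value rested on 27 UMIs, 81.5% of them in 1 cell. Il33 was the 1 member higher past the size rule there, at a log2 ratio of 1.61, of 3 tested, against 8.21% of 6198 genes higher and 8.29% lower. Doublet removal left 248 of 289 LPCAT3-AKO and 107 of 186 control cells of this class, and the Il33 call was not repeated with doublets left in. After thinning, 3.70% (1.71 to 6.91) of LPCAT3-AKO and 1.90% (0.232 to 6.71) of control epithelial-like cells had a UMI, so the difference was not detectable at that depth. The 8 fibroblast markers summed to 737 CPM in LPCAT3-AKO and 386 CPM in control epithelial-like cells, with 0 of them at 0 in either library, and their part in the Il33 value was not tested.

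Vascular endothelial-like cells, a site of IL-33 in many tissues, had 4 Il33 UMIs in 2 of 209 LPCAT3-AKO cells (1.80 CPM) and 27 UMIs in 10 of 202 control cells (11.8 CPM, 7.80 to 17.2). Of the 9 members, 0 reached 20 CPM in either library in this class, where 1.73% of 6633 genes were higher and 1.66% lower. Innate lymphoid-like cells had 0 Il33 UMIs in both libraries, which allows up to 35.7 CPM in the LPCAT3-AKO and 64.2 CPM in the control library.

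**Figure D4:**
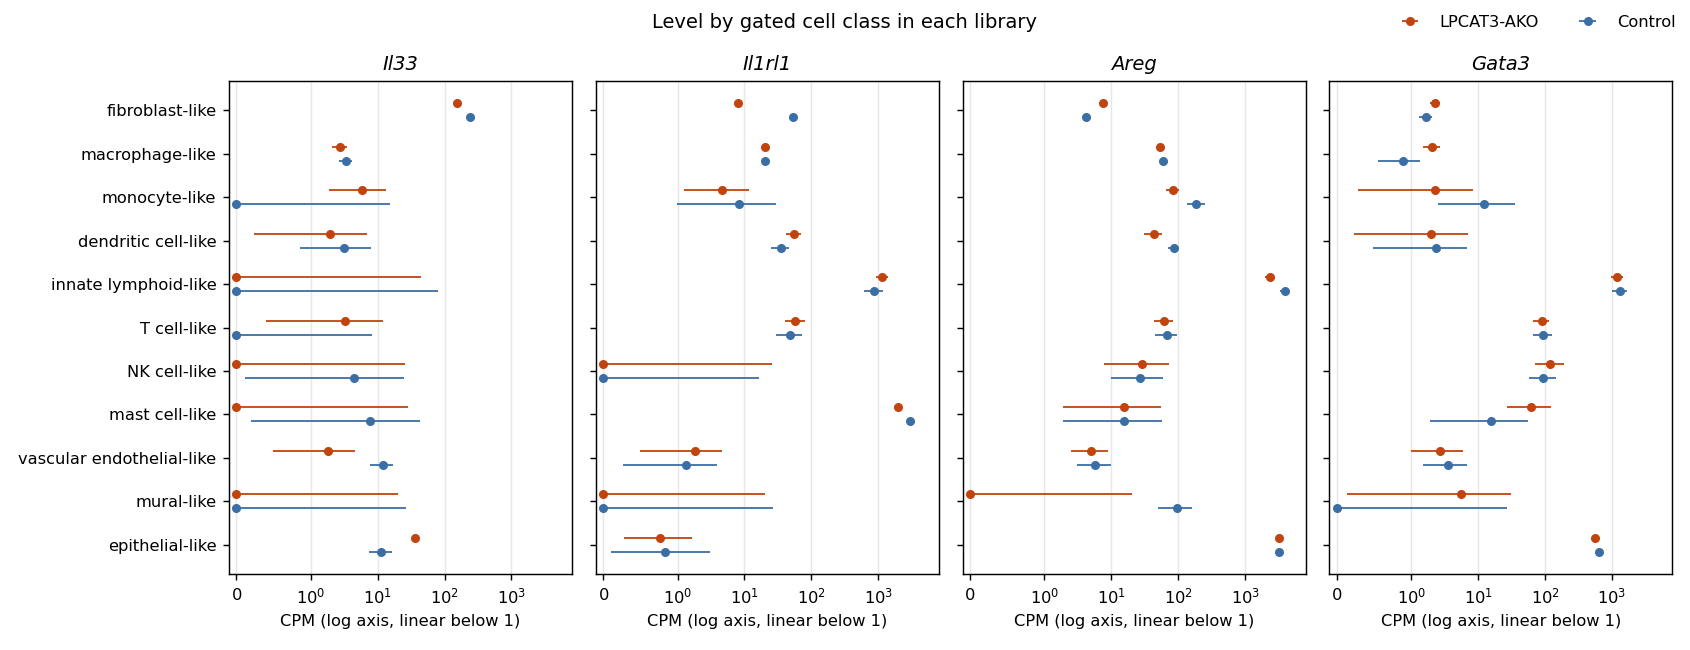
Level of Il33, Il1rl1, Areg and Gata3 in 11 cell classes, in CPM on a log axis that is linear below 1, with the LPCAT3-AKO library above the control in each row and bars for 95% counting intervals. Il1rl1 is highest in mast cell-like and innate lymphoid-like cells of both libraries and is 8.04 CPM in LPCAT3-AKO against 53.1 CPM in control fibroblast-like cells.

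By level, though not by share of UMIs, Il1rl1, the ST2 gene, was highest in mast cell-like and innate lymphoid-like cells of both libraries. Its level in mast cell-like cells was 1976 CPM (1742 to 2234) in the LPCAT3-AKO and 2961 CPM (2670 to 3274) in the control library, with a UMI in 57 of 61 and 63 of 68 cells. The ratio of 0.668 (0.567 to 0.784) stood just short of the size rule, and 0 of the 4 members tested in mast cell-like cells passed it, against 2.47% of 7087 genes higher and 2.22% lower. This class is small too: Il13 was tested there on 4 LPCAT3-AKO and 6 control UMIs, and a gene on so few can hardly pass. The lack of a call for Il1rl1 depended on the setting: it was lower past the size rule with classes from clusters, at a ratio of 0.592 (0.506 to 0.693), and after thinning, at 0.635 (0.479 to 0.834). The level in innate lymphoid-like cells was 1131 CPM (915 to 1383) for 22 of 23 LPCAT3-AKO cells with a UMI and 857 CPM (612 to 1166) for 10 of 12 control cells, with overlapping intervals. All 35 innate lymphoid-like cells had a UMI of Il1rl1 or Gata3, although neither gene was used to gate them.

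Below these came a middle tier. Regulatory T cell-like cells, among which ST2 is known to mark those resident in tissues, had 12 UMIs of Il1rl1 in 9 LPCAT3-AKO cells (144 CPM, 74.2 to 251) and 7 UMIs in 6 control cells (297 CPM, 120 to 613). All T cell-like cells taken as 1 class stood at 57.6 CPM (40.1 to 80.1) and 47.2 CPM (29.2 to 72.2). Neither difference exceeded its counting error. In dendritic cell-like cells Il1rl1 was 54.3 CPM (41.1 to 70.6) in the LPCAT3-AKO and 34.7 CPM (25.2 to 46.6) in the control library. That was higher past the size rule in a loosely gated class, where 6.02% of 5251 genes were higher and 3.33% lower. A dendritic cell-like cluster led by Cd209a, with Flt3 among its leading genes, had 125 CPM in 274 LPCAT3-AKO cells and 111 CPM in 284 control cells, and most of it met no gate. Macrophage-like cells had 20.3 CPM (18.6 to 22.2) and 20.2 CPM (18.5 to 22.1), spread over 13.9% and 11.4% of cells. Those outside the resident, interferon-high and dividing states had 43.5 and 39.9 CPM, and the resident ones 14.1 and 16.4 CPM. At the bottom, vascular endothelial-like cells had 4 and 3 UMIs and epithelial-like cells 0.757 and 0.833 CPM. NK cell-like cells had 0 UMIs in both libraries, which allows up to 21.2 CPM in the LPCAT3-AKO and 13.4 CPM in the control library.

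In fibroblast-like cells Il1rl1 differed far more than Il33. It stood at 8.04 CPM (7.30 to 8.83) in the LPCAT3-AKO and 53.1 CPM (51.1 to 55.1) in the control library, a log2 ratio of -2.58 and a ratio of 0.151 (0.137 to 0.168). The share of cells with a UMI differed less, at 3.62% of LPCAT3-AKO and 6.66% of control cells, and at 1.23% (0.954 to 1.55) and 3.19% (2.73 to 3.69) after thinning. For background, 1.91% of LPCAT3-AKO and 1.49% of control vascular endothelial-like cells had a UMI, at median depths of 8615 and 9326.5 UMIs.

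The Il1rl1 level of the control library was carried by few cells with many UMIs. Fibroblast-like cells with 5 or more UMIs numbered 21 of 5664 in the LPCAT3-AKO and 112 of 5511 in the control library, and held 41.1% and 85.3% of the class's Il1rl1 UMIs. Cells with 20 or more numbered 1 and 45. The highest cell held 22 UMIs in the LPCAT3-AKO and 113 in the control library. Mast cell markers in fibroblast-like cells summed to 15.9 CPM in LPCAT3-AKO and 11.9 CPM in control cells over 8 markers, with 0 of them at 0 in either library.

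**Figure D5:**
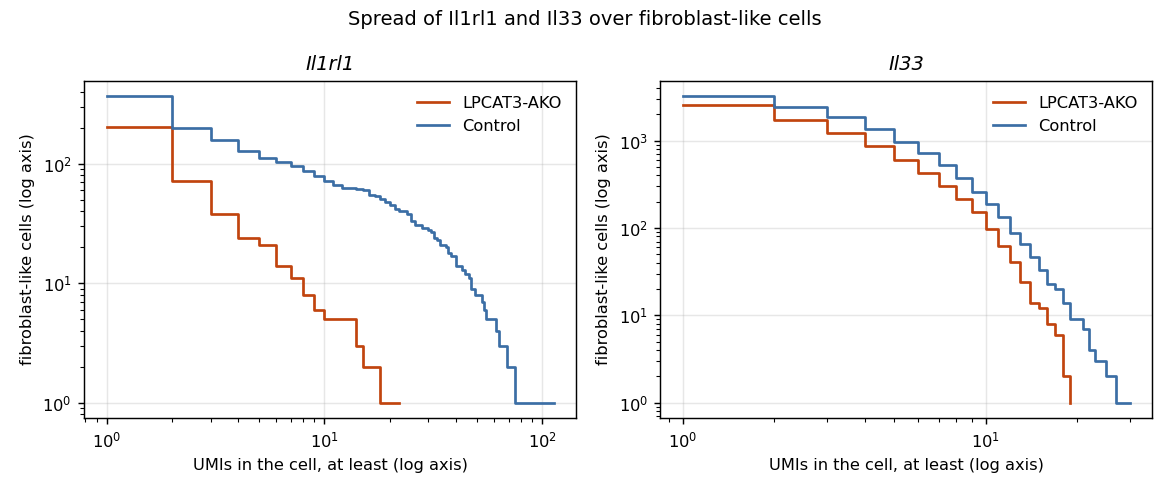
Number of fibroblast-like cells (vertical axis, log) that hold at least the given number of UMIs (horizontal axis, log) of Il1rl1 on the left and Il33 on the right. The Il33 curve of LPCAT3-AKO lies below that of the control library, and they end at 19 and 30 UMIs in a cell. The Il1rl1 curve of the control library reaches 113 UMIs in a cell and that of LPCAT3-AKO ends at 22.

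These Il1rl1-rich cells lay mainly in 2 fibroblast-like states. Of the 112 control cells with 5 or more UMIs, 53 were Dpp4-high and 50 (44.6%) interferon-high, and of the 21 LPCAT3-AKO cells 17 were Dpp4-high and 0 interferon-high. Interferon-high cells had 7 UMIs in 4 of 127 LPCAT3-AKO cells (5.11 CPM, 2.05 to 10.5) and 1183 UMIs in 78 of 320 control cells (328 CPM, 310 to 347), a log2 ratio of -5.75. In the interferon-high state 10.5% of 6124 genes were lower and 6.78% higher. Dpp4-high cells had 10.7 CPM (9.63 to 11.9) and 37.7 CPM (35.7 to 39.8), a log2 ratio of -1.72. In the Dpp4-high state 0.726% of 5922 genes were lower and 0.929% higher. Icam1-high cells had 2.42 CPM in LPCAT3-AKO and 20.2 CPM in control cells, and 29.1% of the control UMIs there came from 1 cell. In that state 0.899% of 6231 genes were lower and 0.802% higher. Without the interferon-high state, the log2 ratio of Il1rl1 over the class was -1.88.

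Many of the cells with Il1rl1 also had an Il33 UMI. An Il33 UMI was seen in 71.4% (47.8 to 88.7) of LPCAT3-AKO and 69.6% (60.2 to 78.0) of control cells with 5 or more Il1rl1 UMIs, against 44.1% and 57.3% of cells with 0. The Il1rl1-rich cells were deeper, with medians of 11028 and 10929 UMIs against 9159 and 9358. By level, which does not depend on depth in this way, Il33 was 253 CPM in LPCAT3-AKO and 322 CPM in control Il1rl1-rich cells, against 150.3 and 231 CPM in the cells with 0. The groups also differed in state. Icam1-high cells, with Il33 near the background, were 1234 of 5459 LPCAT3-AKO and 725 of 5144 control cells with 0 Il1rl1 UMIs. Among the Il1rl1-rich cells they were 0 of 21 and 6 of 112. States were not matched, and their part in this contrast was not tested.

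Genes that led the 112 Il1rl1-rich control cells were picked after their values were seen, and so are only named. Nptx2, a secreted pentraxin, had 66.3 CPM in the Il1rl1-rich and 6.54 CPM in the Il1rl1-negative LPCAT3-AKO cells, and 155 and 9.40 CPM in those of the control library. The interferon-induced Ifit1 had 124 and 121 CPM in the LPCAT3-AKO library and 1111 and 204 CPM in the control library. Others that led these control cells were the prostaglandin transporter Slco2a1 (568 CPM, against 71.8 CPM in the negative cells), the small heat shock protein Hspb1 (629 against 90.0 CPM) and the hyaluronan receptor Cd44 (294 against 44.9 CPM). A cluster of fibroblast-like cells led by Nptx2, Ifit1 and Ifit3, formed without the 9 members, held 19 LPCAT3-AKO and 150 control cells. It had 0 Il1rl1 UMIs in the LPCAT3-AKO library and 891 CPM in the control. Not every fibroblast-like cluster had this direction: one led by Has1, Tnfaip6 and Ptx3 had 13.7 CPM in 669 LPCAT3-AKO cells and 3.50 CPM in 341 control cells.

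Il1rap, the chain that ST2 shares with the IL-1 receptor, differed little. Fibroblast-like cells had 19.7 CPM (18.5 to 20.9) in the LPCAT3-AKO and 23.3 CPM (22.1 to 24.7) in the control library, a log2 ratio of -0.23, and held 70.1% and 76.2% of its UMIs. Macrophage-like cells had 9.94 and 9.47 CPM. Among the classes and states measured, the 1 with a difference past the size rule was the interferon-high fibroblast-like cells, where Il1rap was higher, with 29.2 CPM (20.8 to 39.7) on 40 UMIs in the LPCAT3-AKO and 18.9 CPM (14.6 to 23.9) on 68 UMIs in the control library. Il33 and Il1rl1 were lower in that same state, where 6.78% of 6124 genes were higher and 10.5% lower. In the classes richest in Il1rl1, Il1rap was at the limit of detection. Innate lymphoid-like cells had 0 and 2 UMIs and mast cell-like cells 2 and 0 UMIs.

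The innate lymphoid-like cells carried the type 2 profile in both libraries, on 83970 UMIs in 23 LPCAT3-AKO and 46701 UMIs in 12 control cells. The gate capped their T cell markers, so low values of those were fixed in part beforehand. Of 6 genes of the T cell receptor complex, Cd3e, Cd3d and Trac had 0 UMIs in either library, and Cd3g had 1 UMI in LPCAT3-AKO and 2 UMIs in control cells. The receptor chain genes Trbc1 and Trbc2 were present, the second at 333 CPM (28 UMIs) in LPCAT3-AKO and 193 CPM (9 UMIs) in control innate lymphoid-like cells, against 953 and 1071 CPM in T cell-like cells. Of the 9 members 7 reached 20 CPM in them, of which 2 (Il5 and Areg) were lower past the size rule and 0 higher. Over all 7220 genes tested in these few cells, 1.65% were lower and 0.693% higher, and the median log2 ratio was -0.26, against -0.13 for the 7 members. Very few UMIs reach 20 CPM in so small a class: Il1rap counted as tested on 0 LPCAT3-AKO and 2 control UMIs. Genes on so few UMIs can hardly pass the rule, so these shares are a weak background for the members.

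Il5, the eosinophil growth factor, had 27 UMIs in 7 of 23 LPCAT3-AKO cells (322 CPM, 212 to 468) and 29 UMIs in 8 of 12 control cells (621 CPM, 416 to 892). The log2 ratio was -0.95 and the ratio 0.518 (0.295 to 0.906), and 1 cell held 10 of the 27 UMIs in the LPCAT3-AKO and 9 of the 29 in the control library. After thinning, on 11 LPCAT3-AKO and 13 control UMIs, the ratio was 0.462 with an interval that included 1 (0.187 to 1.12), and the call was lost. Il13, the cytokine that drives mucus and alternative macrophage activation, had 17 UMIs in 3 of 23 LPCAT3-AKO cells (202 CPM, 118 to 324) and 10 UMIs in 3 of 12 control cells (214 CPM, 103 to 394). With a log2 ratio of -0.08 and a ratio of 0.945 (0.409 to 2.31), no difference was detectable at this depth. The UMIs of Il13 were concentrated too, with 64.7% and 60.0% in 1 cell.

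Transcripts of several of these products were seen in the same cells. Il5 or Il13 was seen in 8 of 23 LPCAT3-AKO and 8 of 12 control innate lymphoid-like cells, both together in 2 and 3 cells. Of the cells with either, 8 and 7 also had Areg, which was seen in 19 of 23 and 9 of 12 of all these cells. An overlap beyond these base counts was not tested. Gata3 and Il1rl1 were seen together in 19 of 23 LPCAT3-AKO and 10 of 12 control cells. The libraries were alike in depth here, with medians of 3369 and 3314 UMIs per cell.

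Csf2, the gene for GM-CSF, had 43 UMIs in 12 of 23 LPCAT3-AKO innate lymphoid-like cells (512 CPM, 371 to 690) and 19 UMIs in 3 of 12 control cells (407 CPM, 245 to 635). The ratio of 1.26 (0.718 to 2.29) did not exceed counting error, 68.4% of the control UMIs came from 1 cell, and the log2 ratio of 0.33 was -0.63 after thinning. Fibroblast-like cells also had Csf2, at a trace level over the class: 37 UMIs in 12 of 5664 LPCAT3-AKO cells (0.687 CPM) and 93 UMIs in 32 of 5511 control cells (1.79 CPM). That ratio was 0.384 (0.255 to 0.567) at levels below the 20 CPM of the size rule. As a share of all Csf2 UMIs, fibroblast-like cells held 28.5% in the LPCAT3-AKO and 63.3% in the control library. Innate lymphoid-like cells held 33.1% and 12.9%. Macrophage-like cells had 18 UMIs in 5 LPCAT3-AKO cells and 26 UMIs in 1 control cell.

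The richest single source of Il5 was neither an innate lymphoid-like nor a gated T cell. A control cell that showed 5 of 8 T cell and 7 of 12 innate lymphoid markers, and so met no gate, held 43 of the 82 control UMIs of Il5 and 6 of the 24 of Il13. In the LPCAT3-AKO library a fibroblast-like cell held 12 of the 58 Il5 UMIs. Gated T cells had 3 UMIs of Il5, 1 of Il13 and 3 of Il4 in 153 LPCAT3-AKO cells, and 0 of each in 105 control cells, which allows up to 6.75 CPM. A cluster led by Cd3d, Cd3e and Cd3g also took in cells that met no gate, among them the control cell above. It had 12 UMIs of Il5 and 1 of Il13 in 188 LPCAT3-AKO cells. Its 134 control cells had 43 and 6 UMIs, the same numbers as that 1 cell held.

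Il4 had its highest level in mast cell-like cells, while macrophage-like cells, at a trace level in many more cells, held most of its UMIs. The share of Il4 UMIs was 66.7% in LPCAT3-AKO and 54.8% in control macrophage-like cells, and 20.3% and 38.1% in mast cell-like cells. Mast cell-like cells had 14 UMIs in 13 of 61 LPCAT3-AKO cells (108 CPM, 59.1 to 181) and 16 UMIs in 12 of 68 control cells (125 CPM, 71.3 to 202), with overlapping intervals. Their Il13 stood at 4 and 6 UMIs (30.9 and 46.7 CPM). Macrophage-like cells had 46 UMIs in 45 of 2717 LPCAT3-AKO cells (1.94 CPM) and 23 UMIs in 23 of 3718 control cells (0.923 CPM), a ratio of 2.10 (1.25 to 3.63). Most of these, 39 and 22 UMIs, lay in resident macrophage-like cells, spread 1 to a cell for the most part, at levels below the size rule. In fibroblast-like cells 2 and 2 UMIs were seen. Innate lymphoid-like cells had 0 Il4 UMIs in both libraries.

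Areg, an EGF receptor ligand of tissue repair, had its highest level in epithelial-like and innate lymphoid-like cells. Epithelial-like cells had 3177 CPM (3138 to 3217) in the LPCAT3-AKO and 3159 CPM (3089 to 3231) in the control library, a log2 ratio of 0.01 that reached -0.13 under other settings. Over all kept cells Areg was 302 CPM in the LPCAT3-AKO and 143 CPM in the control library, beside 248 and 107 epithelial-like cells. These epithelial-like cells had medians of 22912.5 and 17194 UMIs. Without them Areg was 56.0 CPM in the LPCAT3-AKO and 62.9 CPM in the control library. The gap depended on doublet removal: with doublets left in, a comparison added after seeing the data, Areg over all cells was 292 CPM in LPCAT3-AKO and 209 CPM in control cells, beside 289 and 186 epithelial-like cells, so that the ratio was 1.40, against 2.11 with doublets removed. Innate lymphoid-like cells had 2310 CPM (1997 to 2659) in 19 of 23 LPCAT3-AKO cells and 3876 CPM (3332 to 4483) in 9 of 12 control cells. That was lower past the size rule, at a log2 ratio of -0.75 and a ratio of 0.596 (0.484 to 0.734), with 17.5% and 32.6% of the UMIs in 1 cell. After thinning the levels were 2409 and 3292 CPM, a ratio of 0.732 (0.542 to 0.992), and the call was lost.

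Myeloid cells formed the next tier of Areg. Monocyte-like cells had 82.8 CPM in the LPCAT3-AKO and 185 CPM in the control library, and 55.6% of the control UMIs came from 1 of 45 cells. Dendritic cell-like cells had 42.7 CPM (on 44 UMIs) and 85.2 CPM (on 108 UMIs), lower past the size rule. Macrophage-like cells had 52.5 CPM (49.6 to 55.5) and 59.2 CPM (56.2 to 62.3), and 0 of the 2 members tested there passed the size rule, against 1.38% of 6024 genes higher and 0.681% lower. The small difference in macrophages changed its sign with the settings, from -0.17 to 0.10 on the log2 scale. Interferon-high macrophage-like cells had 105 CPM in LPCAT3-AKO and 45.6 CPM in control cells, but 55.6% of the LPCAT3-AKO UMIs came from 1 cell.

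A cluster led by Lyz1, Ear2 and Il1rn, most of whose cells met no gate, had 623 CPM of Areg in 378 LPCAT3-AKO cells and 738 CPM in 482 control cells. It held 74.7% of the Areg UMIs of the ungated cells. T cell-like cells had 60.9 CPM (42.9 to 84.0) and 67.5 CPM (45.5 to 96.3) of Areg, and 0 of the 3 members tested there passed the size rule, against 3.66% of 6250 genes higher and 5.34% lower. The cluster led by Cd3d, Cd3e and Cd3g had 215 CPM of Areg in 188 LPCAT3-AKO and 141 CPM in 134 control cells. Fibroblast-like cells had 7.41 CPM in LPCAT3-AKO and 4.12 CPM in control cells, below the size rule. The 8 epithelial markers summed to 58.1 CPM in LPCAT3-AKO and 46.3 CPM in control fibroblast-like cells, with 0 and 2 of them at 0, and their part in that trace of Areg was not tested.

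Gata3, the transcription factor of type 2 lymphocytes and also of mammary and skin epithelium, had the same pair of sources as Areg. Innate lymphoid-like cells had 1191 CPM (969 to 1448) in 20 of 23 LPCAT3-AKO cells and 1306 CPM (999 to 1678) in 12 of 12 control cells, with a ratio of 0.912 (0.657 to 1.28). The level in epithelial-like cells was 556 CPM (540 to 573) and 642 CPM (611 to 675), a log2 ratio of -0.21 that missed the size rule. Other lymphocytes had less and did not differ beyond counting error: T cell-like cells 88.9 and 92.2 CPM, NK cell-like cells 120.2 and 93.9 CPM. Over all kept cells Gata3 was 48.4 CPM in the LPCAT3-AKO and 19.9 CPM in the control library, a ratio of 2.43. With doublets left in, the levels were 50.9 and 31.3 CPM, a ratio of 1.63. Without the epithelial-like cells, and with doublets removed, they were 5.03 and 3.37 CPM.

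By a fixed measure of likeness, the correlation of log2 levels over 33 classes and states of the 2 libraries among 11885 genes, the genes nearest to Il33 were the receptor gene Adgrg2 (r = 0.90), the netrin gene Ntn1 (0.89), the NADPH oxidase gene Nox4 (0.88), Pnp2 (0.87) and Scara3 (0.87). Nearest to Il1rl1 were the transporter gene Slc6a13 (0.83), 4932438H23Rik (0.81), Serpinb1a (0.76), the cannabinoid receptor gene Cnr2 (0.76) and the transporter gene Slc7a8 (0.75). The units share their library, depth and gates, so these values only describe how the levels line up.

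Most of the tested genes around the pathway did not pass the size rule in fibroblast-like cells, where 0.76% of all 6051 genes tested were lower and 1.44% higher. Of 10 other IL-1 family ligands and receptors, 3 were tested and 0 passed the size rule in either direction, with a median log2 ratio of -0.22. The decoy receptor gene Il1r2 had 128 CPM in LPCAT3-AKO and 178 CPM in control cells, and Il18 95.8 and 112 CPM. Of 13 genes of IL-33 signalling, 9 were tested, 1 was lower and 0 higher, with a median of -0.05. The lower one was the NF-kB subunit gene Nfkb1, with 106 CPM in LPCAT3-AKO and 171 CPM in control cells (-0.68).

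Of 13 receptor and signal genes for the type 2 cytokines, 5 were tested and 0 passed, with a median of -0.03. Egfr, the receptor of amphiregulin, had 389 CPM in LPCAT3-AKO and 398 CPM in control fibroblast-like cells, and Il4ra, shared by IL-4 and IL-13, 115 and 121 CPM. Of 11 other alarmins and helper signals 0 reached the 20 CPM needed, and the highest, the alarmin Tslp and the TSLP receptor Crlf2, had 14.1 and 17.5 CPM in LPCAT3-AKO and 12.7 and 13.9 CPM in control cells. Of 9 other cytokines of lymphocytes 1 was tested, Il6, with 103 CPM in LPCAT3-AKO and 107 CPM in control cells. Of 11 effector targets of type 2 cytokines 4 were tested and 0 passed, with a median of 0.16. The eosinophil chemokine Ccl11 had 249 CPM in LPCAT3-AKO and 207 CPM in control cells. Of 8 proteases that process IL-33 the 1 tested, the cathepsin gene Ctsl, had 1009 and 949 CPM.

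The remaining calls on the lists were 4 targets of AP-1 and NF-kB and 1 immediate-early gene. Of 8 targets of AP-1 and NF-kB all 8 were tested in fibroblast-like cells, 4 were lower and 0 higher, with a median of -0.58. The lower ones were the chemokines Cxcl1 (680 CPM in LPCAT3-AKO and 1221 CPM in control cells) and Ccl2 (218 and 577 CPM) and the NF-kB inhibitors Nfkbia (699.6 and 1081 CPM) and Tnfaip3 (61.8 and 114 CPM). Il6 was among the targets that did not pass. Over all 6051 genes tested in these cells, 0.76% were lower and 1.44% higher. Of 12 immediate-early genes 10 were tested, 1 was lower and 0 higher, with a median of -0.19. The lower one was Fosb, with 762 CPM in LPCAT3-AKO and 1213 CPM in control cells. All these values come from the same cells as the Il33 difference, and their part in it was not tested.

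In other classes the lists moved differently. Epithelial-like cells had 9 of 10 tested immediate-early genes higher and 0 lower, against 8.21% of 6198 genes higher and 8.29% lower. Among these immediate-early genes Jun had 2439.8 CPM in LPCAT3-AKO and 1136 CPM in control cells, and Atf3 1100.1 and 193 CPM. Doublet removal left 248 of 289 LPCAT3-AKO and 107 of 186 control epithelial-like cells, and this list was not counted with doublets left in. Of 3 other lymphocyte cytokines tested in macrophage-like cells, Il10 was lower, with 73.7 CPM in LPCAT3-AKO and 123 CPM in control cells. Over all 6024 genes tested there, 0.681% were lower and 1.38% higher. In T cell-like cells 3 of the 4 tested, Il2, Ifng and Il6, were lower and 0 higher, with a median of -2.34. Over 6250 genes there, 5.34% were lower and 3.66% higher. The 8 NK cell markers summed to 125 CPM in LPCAT3-AKO and 1428 CPM in control T cell-like cells, and their part in these calls was not tested. In innate lymphoid-like cells 0 of 13 tested genes of IL-33 signalling passed the size rule, which genes on few UMIs can hardly pass in so small a class. The 1 effector target of type 2 cytokines called there was Retnla, higher on 29 UMIs in LPCAT3-AKO and 5 UMIs in control cells.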

How the data were processed

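Raw UMI counts per gene and barcode, as deposited by the authors, were used without normalization, from 1 LPCAT3-AKO and 1 control library. Cell Ranger 6.1.2 stands in the file headers, and per the submitters' processing notes Seurat 4.10 and the build mm10 were used too. The annotation release is not given in the sources used here, and the study's bulk RNA sequencing was not analysed here.

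The 9 members, the gene lists and the markers were chosen with earlier results of these data known, and the scoring of the gates was set after the counts had been seen. Where several entries shared a symbol, the one with the most UMIs was kept, and 40 entries were left out. Barcodes with 500 or more genes and at most 10% mt- UMIs were kept, and the highest Scrublet scores, 0.8% of cells per 1000 cells, were removed as doublets (1088 LPCAT3-AKO and 1235 control cells; Scrublet's own threshold called 558 and 589).

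A marker counted as shown in a cell at 10% or more of the mean level, in UMIs per 10000, of its top 50 cells. A cell took the class, of 14, with the largest share of its markers shown, with at least 3 markers and a lead of 15 percentage points. Innate lymphoid-like cells needed 4 of their markers and at most 25% of the T cell markers. A fibroblast-like state needed 25% of its markers and a lead of 10 percentage points, and the interferon-high and dividing states 50%. Resident macrophage-like and regulatory T cells needed 60%. These gates rest on markers alone, hence the ending "-like". Clusters for comparison used scanpy 1.11.5 (Leiden) without the 9 members.

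UMIs were summed per class and library. CPM values carry exact Poisson intervals, shares exact (Clopper-Pearson) intervals and ratios exact binomial intervals of the pair of counts, at 95%. The floor for 0 UMIs was 3 counts, and the pseudocount was 1 CPM. Genes named are the 9 members, up to 4 of each list by level, and the 5 most like Il33 and Il1rl1. Others are said to have been chosen after their values were seen. Alternatives were no doublet removal, 1000 or more genes, classes from clusters, thinning to 2000 UMIs, means over cells, states weighted alike and a minimum of 50 CPM.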

Additional observations from a re-analysis of the deposited data

How the results depend on the processing

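No paired analysis was possible because each group has 1 library and the labels carry no replicate numbers. Of 84 alternative values for 16 single-gene results, 73 kept the sign of the value reported. The log2 ratio of Il33 in fibroblast-like cells was -0.57 with cells thinned to 2000 UMIs and -0.41 with states weighted alike, against -0.62. That of Il1rl1 was -2.25 with states weighted alike and -1.88 without the interferon-high state, an alternative chosen after seeing the data, against -2.58. Thinning ended the size-rule calls of Il33 in fibroblast-like cells and of Il5 and Areg in innate lymphoid-like cells, weighting the states alike ended that of Il33, and thinning or classes from clusters brought Il1rl1 in mast cell-like cells past the rule. The cause of these shifts was not tested beyond what each setting changes by construction. With a minimum of 50 CPM, which leaves fewer genes to test, 30 genes were lower and 49 higher in fibroblast-like cells, against 46 and 87. Il13 in innate lymphoid-like cells ranged from -0.55 to 0.03 within its counting interval, and Csf2 there was -0.63 after thinning, against 0.33. Depth limits the results that rest on few UMIs, such as Il5, Il13 and Csf2 in innate lymphoid-like cells, with 10 to 43 UMIs in a library.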
